A study of Homo sapiens with 34 samples.

Results

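The sites compared here are those of RBPJ in GSI-resistant MB157R cells and in the parental MB157 cells, both carrying an empty vector (iEV). A summit, the highest position of a peak, was called shared if a summit of the other list lay under 500 bp away, and otherwise resistant-only or parental-only. On chromosomes 1 to 22 and X, MB157R iEV had 46601 RBPJ peaks, of which 34396 were resistant-only and 12205 shared. MB157 iEV had 25243 RBPJ peaks, of which 12264 were shared and 12979 were parental-only. MB157 is a triple-negative breast cancer (TNBC) line driven by a rearranged NOTCH1, and MB157R was obtained from it by 25 weeks of culture in 1 µM of the γ-secretase inhibitor (GSI) LY3039478, so that 1 resistant derivative of 1 line stood against its parent. Both were given 1 µg/ml doxycycline for 72 h, although the vector held no SOX2 or NOTCH1 insert. Each group comprised 3 RBPJ immunoprecipitations and 3 inputs, and the authors called peaks on the pooled libraries. There was therefore 1 list per line and no spread between replicates, so that intervals and tests below are about sites and cover counting error only. Whether GSI was present during the 72 h is not given in the sources used here. Further lists served to look at the same sites in libraries that had not defined them. The first was RBPJ in MB157R expressing HA-tagged NOTCH1 without its extracellular domain, which the study names N1-ICD (iN1-ICD). The others were RBPJ and HA in MB157 expressing HA-tagged SOX2 (iSOX2), SOX2 in MB157R iEV, and 1 HA control library of MB157 iEV.

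NOTCH receptors are cleaved upon ligand binding, and γ-secretase makes the last cut, which frees the intracellular domain. In the nucleus this domain joins RBPJ, a protein that recognises the core TGGGAA, and MAML coactivators, whereas RBPJ without it recruits corepressors such as SPEN and NCOR. AP-1, made of JUN and FOS proteins, recognises TGANTCA and marks many active enhancers of epithelial and mesenchymal cells, and SOX2 is an HMG-box factor of stem cells.

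Sequences from the 3 classes are shown because they hold the letters that differed most between them. Each is the hg38 reference sequence around an RBPJ summit, 81 bases long except for HES4, which is centred on a pair of motifs. Capitals mark TGANTCA and TGGGAA on either strand, so that TTCCCA is TGGGAA on the other strand. The first 4 are strong distal resistant-only sites with TGANTCA inside the 81 bases shown, which were called in both MB157R lists and in neither MB157 list. PLXDC2 has 2 copies of TGGGAA and no TGANTCA. In HES4, capitals mark a head-to-head pair of GTGNGAA and TTCNCAC, 16 bases apart, an arrangement known to bind a pair of RBPJ complexes.
AKIRIN2, resistant-only, chr6:87723441-87723521: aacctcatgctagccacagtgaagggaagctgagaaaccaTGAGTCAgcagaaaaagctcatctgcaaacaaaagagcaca
DAPP1, resistant-only, chr4:99815751-99815831: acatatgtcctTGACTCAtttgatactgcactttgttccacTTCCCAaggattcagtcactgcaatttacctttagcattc
SPTBN5, resistant-only, chr15:41930771-41930851: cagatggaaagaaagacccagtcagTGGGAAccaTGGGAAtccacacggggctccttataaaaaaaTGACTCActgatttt
SERPINB1, resistant-only, chr6:2810096-2810176: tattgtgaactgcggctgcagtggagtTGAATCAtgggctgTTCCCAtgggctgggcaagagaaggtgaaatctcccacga
PLXDC2, resistant-only, chr10:19833270-19833350: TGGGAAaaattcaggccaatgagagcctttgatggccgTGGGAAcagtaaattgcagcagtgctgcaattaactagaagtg
NRARP, shared, chr9:137311590-137311670: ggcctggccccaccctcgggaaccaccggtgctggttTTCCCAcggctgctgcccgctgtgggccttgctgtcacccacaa
RBPJ, shared, chr4:26319594-26319674: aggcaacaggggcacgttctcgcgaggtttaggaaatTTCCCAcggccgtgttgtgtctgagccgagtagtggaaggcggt
HES4, shared, chr1:1000130-1000189: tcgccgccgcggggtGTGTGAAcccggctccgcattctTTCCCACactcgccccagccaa
MYEOV, parental-only, chr11:69252328-69252408: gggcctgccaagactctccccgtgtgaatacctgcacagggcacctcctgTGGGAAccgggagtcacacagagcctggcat
LURAP1L, parental-only, chr9:12817929-12818009: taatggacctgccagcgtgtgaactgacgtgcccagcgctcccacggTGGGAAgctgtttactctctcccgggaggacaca
TENT4A, parental-only, chr5:6733199-6733279: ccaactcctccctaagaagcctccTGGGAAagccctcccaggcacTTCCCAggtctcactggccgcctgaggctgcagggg
TMPRSS2, parental-only, chr21:41477934-41478014: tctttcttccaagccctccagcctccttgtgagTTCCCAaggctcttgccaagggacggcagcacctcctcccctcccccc

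Nearly equal numbers of shared summits stood in lists of unequal length. Resistant-only sites were 73.8% of the MB157R summits (95% exact binomial interval 73.4 to 74.2), and parental-only sites were 51.4% of the MB157 summits (50.8 to 52.0). With the MB157R list shortened to the length of the MB157 list by its q values, the shared part was 37.2% in MB157R and 37.6% in MB157. Shared summits were close, with a median distance of 75 bp in the MB157R list. At the limit of 500 bp, 609 MB157R summits lay 400 to 500 bp from an MB157 summit (median fold 6.02) and 460 lay 500 to 600 bp away (5.66). In the MB157 list these numbers were 650 (median fold 4.61) and 511 (4.58). A peak of the other list nevertheless overlapped 1219 resistant-only sites (3.54%) and 2019 parental-only sites (15.6%), which are summits over 500 bp apart inside wide peaks. Depth differed little between the lists. The peak caller expected 1.82 fragments at any position of the genome in MB157R iEV, against 1.60 in MB157 iEV, and no summit was called with fewer than 8 fragments in either list. Where the local background was higher, more fragments were needed for a call. A site absent from a list was thus one with no called summit under 500 bp away, not one shown to be free of RBPJ.

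Sharing rose with the strength of a site in both lists. Fold is the enrichment at a summit over the local input background, as the peak caller gave it. Of the MB157R summits under 4-fold, 10.5% were shared, and of the 637 summits of 20-fold or more, 78.3% (74.9 to 81.5). Of the MB157 summits, 36.4% under 4-fold and 67.3% of the 397 summits of 20-fold or more (62.4 to 71.9) were shared. The median fold was 4.83 at resistant-only sites, 6.75 (MB157R) and 5.29 (MB157) at shared sites, and 4.61 at parental-only sites. Unshared sites were therefore mostly weak, but 1730 resistant-only sites (5.03%) and 774 parental-only sites (5.96%) reached 10-fold. As the rule used both lists, these values describe the classes and test nothing.

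**Figure D1:**
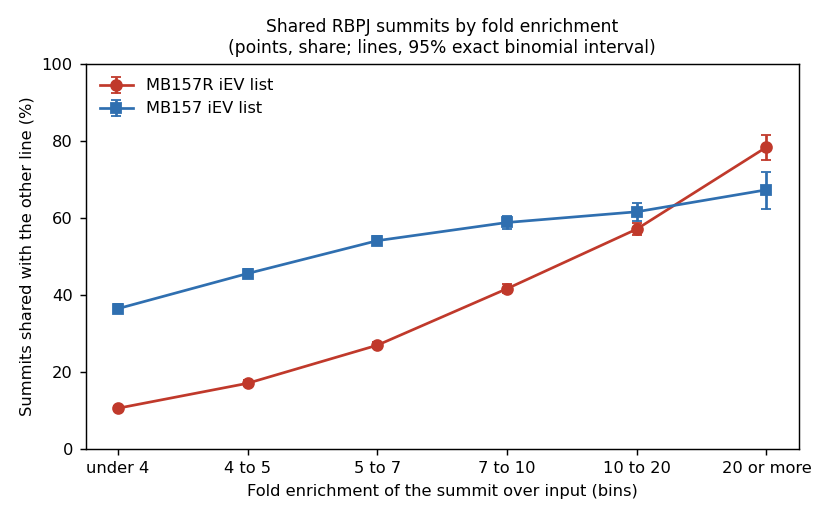
Share of RBPJ summits (y axis, %) that were shared with the other line, by fold enrichment over input (x axis, bins), for the MB157R iEV list (circles) and the MB157 iEV list (squares), with 95% exact binomial intervals. The MB157R share climbs from 10.5% to 78.3% and passes the MB157 share, which climbs from 36.4% to 67.3%, in the last bin.

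Unshared sites of both lines lay away from promoters more often than shared ones. Within 1 kb of the transcription start site (TSS) of a protein-coding gene, called a promoter, lay 7761 resistant-only sites (22.6%), 56.1% of the shared sites and 2856 parental-only sites (22.0%). Resistant-only and shared sites differed (odds ratio 0.228, 95% interval 0.218 to 0.238, Fisher's exact test, two-sided, adjusted p 1e-300, the smallest value written), and so did parental-only and shared sites (0.221, 0.209 to 0.234, adjusted p 1e-300). Resistant-only and parental-only sites differed by less than the test could show (1.03, 0.984 to 1.08, adjusted p 0.195), and the sign of this last comparison depended on the distance that defined a shared site. The median distance to a TSS was 14.7 kb at resistant-only, 0.6 kb at shared and 11.7 kb at parental-only sites.

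Both unshared classes recurred in the other RBPJ list of their own line. RBPJ in MB157R iN1-ICD was called at 49.3% of resistant-only, 75.8% of shared and 14.7% of parental-only sites. RBPJ in MB157 iSOX2 was called at 17.03% of resistant-only, 82.5% of shared and 55.8% of parental-only sites. The contrast thus went with the line, but it was carried mainly by distal sites. At promoters, resistant-only sites were called at 48.2% in MB157R iN1-ICD and 41.0% in MB157 iSOX2, and parental-only sites at 28.0% and 60.7%. At distal sites these shares were 49.7% and 10.0% for resistant-only and 10.9% and 54.4% for parental-only sites. Over promoter and distal sites together, the odds of a call in MB157R iN1-ICD were 5.66 times higher at resistant-only than at parental-only sites (5.37 to 5.97). Those of a call in MB157 iSOX2 were 0.163 of those at parental-only sites (0.156 to 0.170, adjusted p 1e-300 for both by Fisher's exact test). Over 5 bins of fold the Mantel-Haenszel odds ratios were 5.83 and 0.138. At the same resistant-only sites, 13570 were called in MB157R iN1-ICD but not in MB157 iSOX2 and 2456 the other way round (exact McNemar test, two-sided, p 1e-300). At parental-only sites these numbers were 658 and 5989 (p 1e-300). Of the resistant-only sites, 43.5% were called in neither of these lists, against 39.2% of the parental-only sites. These other lists came from cells with another construct, so that the part of the construct in a missing call there was not tested.

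**Figure D2:**
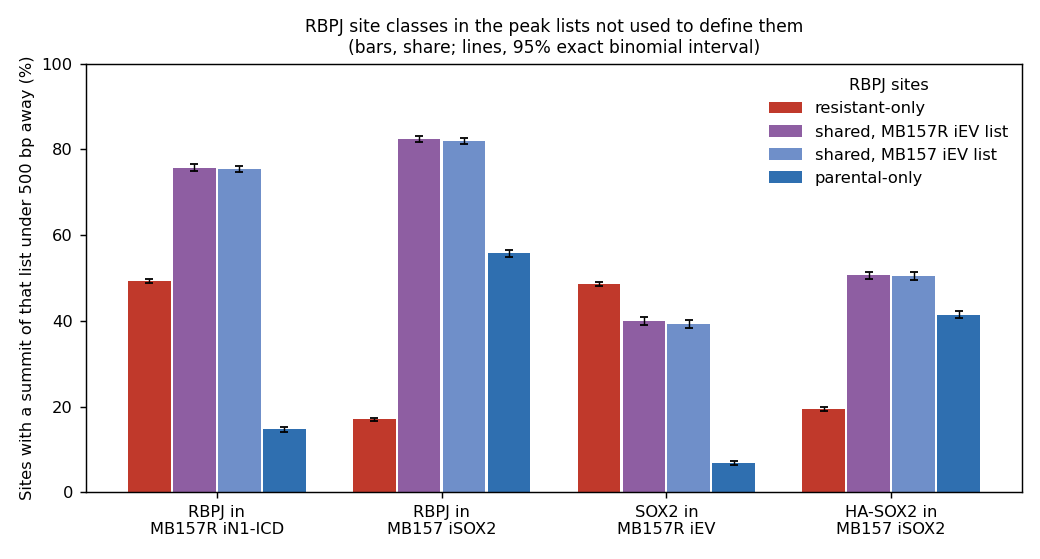
Share of sites (y axis, %) with a summit under 500 bp away in each of 4 lists that did not define the classes (x axis), for resistant-only, shared and parental-only RBPJ sites, with 95% exact binomial intervals. Resistant-only sites stand at 49.3% in the MB157R iN1-ICD list and 17.03% in the MB157 iSOX2 list, and parental-only sites at 14.7% and 55.8%.

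SOX2 lay near many resistant-only sites. In MB157R iEV, a SOX2 summit was found under 500 bp from 16732 resistant-only sites (48.6%, 48.1 to 49.2), 4878 shared sites (40.0%, 39.1 to 40.8) and 893 parental-only sites (6.88%, 6.45 to 7.33). The odds were higher at resistant-only than at shared sites (1.42, 1.36 to 1.48, Fisher's exact test, two-sided, adjusted p 1.34e-61), and more so at equal fold (Mantel-Haenszel odds ratio 2.12 over 5 bins). The difference was carried by distal sites, with 55.3% of resistant-only and 48.6% of shared sites near SOX2. At promoters it turned round, with 26.0% of resistant-only and 33.2% of shared sites near SOX2 (odds ratio 0.706, 0.657 to 0.758, adjusted p 1.10e-21), and at equal fold none was left there (1.02). Resistant-only sites exceeded parental-only sites with an odds ratio of 12.8 (11.9 to 13.8). SOX2 and RBPJ of MB157R iEV were called against the same inputs and come from the line that defines the resistant-only sites, so that the last value cannot be told apart from a difference between lines in what is called at all. HA-SOX2, expressed in MB157, showed the other order, near 19.5% of resistant-only, 50.6% of shared and 41.5% of parental-only sites (resistant-only against parental-only 0.342, 0.327 to 0.358, adjusted p 1e-300 by Fisher's exact test). This list comes from the line that defines the parental-only sites. The odds ratio of 0.342 therefore cannot be told apart from a difference between lines in what is called either. The HA control of MB157 iEV, without tagged SOX2, was near at most 0.253% of any class. Its list held only 77 peaks from 1 library, against 108203 HA-SOX2 peaks from 3 libraries. A low share was therefore fixed in advance, and nothing is read from it.

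Resistant-only sites near SOX2 also differed in sequence and position from the rest of their class. Those with SOX2 were rarely promoters (12.0%, against 32.5% of the 17664 without SOX2) and had a higher median fold (5.31, against 4.46). TGANTCA was found within 100 bp of the summit at 38.4% of them, against 17.6% without SOX2, and the SOX motif (ACAATG or ACAAAG) at 29.6%, against 13.9%. The RBPJ core did not follow SOX2, with 30.5% and 31.0%. These shares were not tested.

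Of the 16 patterns searched, the AP-1 motif separated the classes most. Within 100 bp of the summit and on either strand, TGANTCA was present at 27.7% of resistant-only sites, 10.2% of shared sites (MB157R summits) and 4.57% of parental-only sites. Resistant-only exceeded parental-only sites with an odds ratio of 8.01 (7.36 to 8.73, Fisher's exact test, two-sided, adjusted p 1e-300 over 16 motifs), and equally over bins of fold (7.92). Of all 201-base windows at protein-coding TSSs, 3.92% held it. Windows 5 kb away from the summits held it in 6.21% (resistant-only) and 5.59% (parental-only), so that parental-only summits were not above their surroundings. Distal sites showed it more strongly, with 33.7% of resistant-only, 18.4% of shared and 5.19% of parental-only sites (odds ratio 9.31, 8.50 to 10.2), and promoters less (7.06% and 2.38% of resistant-only and parental-only sites, 3.11, 2.41 to 4.02). The same letters reversed without complementing, ACTNAGT, served as a control of base composition and differed far less, at 4.83% of resistant-only and 3.17% of parental-only sites (1.55, 1.39 to 1.73). Among the 1872 words of 6 bases found in at least 2% of the distal sites of either class, GACTCA and GAGTCA, both parts of the AP-1 motif, had the largest ratios. GACTCA was in 31.9% of distal resistant-only and 9.35% of distal parental-only windows, and the smallest ratio of all was that of CCCACG, which overlaps the RBPJ core on the other strand (8.85% and 14.4%).

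The RBPJ core was less frequent at resistant-only sites, yet rose with fold in every class. TGGGAA was present at 30.8% of resistant-only, 39.7% of shared and 41.5% of parental-only sites (resistant-only against parental-only 0.627, 0.601 to 0.653, adjusted p 1.29e-104), with 15.4% of all TSS windows and 16.7% and 16.1% of windows 5 kb from resistant-only and parental-only summits. GTGGGAA, which contains the core, gave 9.72%, 16.4% and 15.9% (0.570, 0.538 to 0.605), with 3.79% of TSS windows. Among sites of 20-fold or more, however, TGGGAA was found at 74.6% of 138 resistant-only, 82.8% of 499 shared and 79.2% of 130 parental-only sites. At these strong sites TGANTCA still differed, with 43.5%, 14.8% and 3.85%, and SOX2 was near 84.8%, 51.7% and 0.769%. The head-to-head pair was rare, with 6 resistant-only and 3 parental-only sites, and 0.00510% of TSS windows held it.

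Of the other motifs, ETS (CCGGAAG) was found at 3.44% of resistant-only and 1.83% of parental-only sites (1.91, 1.66 to 2.19) and RUNX (TGTGGTT) at 6.85% and 4.78% (1.46, 1.34 to 1.60). TSS windows held ETS in 8.45% and RUNX in 2.53%. CTCF was at 3.18% and 2.13% (1.51, 1.32 to 1.72), with 1.69% of TSS windows. The adjusted p values of these were 1.12e-09 or smaller, but the odds ratios were no larger than that of the reversed AP-1 control except for ETS. SOX and TEAD (GGAATG) motifs did not separate the classes. The SOX motif was at 21.5% of resistant-only and 21.7% of parental-only sites (0.990, 0.943 to 1.04, adjusted p 0.814), and at 22.6% and 21.7% of windows 5 kb away, with 14.97% of TSS windows. The TEAD motif was at 15.8% of both classes, with 8.12% of TSS windows. SP (GGGCGG, 39.9% of TSS windows), NRF1 (GCATGCGC, 2.21%) and forkhead (TGTTTAC, 1.62%) had odds ratios of 1.13 to 1.34, and NF-Y (CCAATCA, 4.78%) and the E-box (CACGTG, 4.94%) did not pass the test. In all, 9 of the 16 patterns were higher in resistant-only sites, the 2 reversed controls among them, and 2 lower, both of these being RBPJ motifs.

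**Figure D3:**
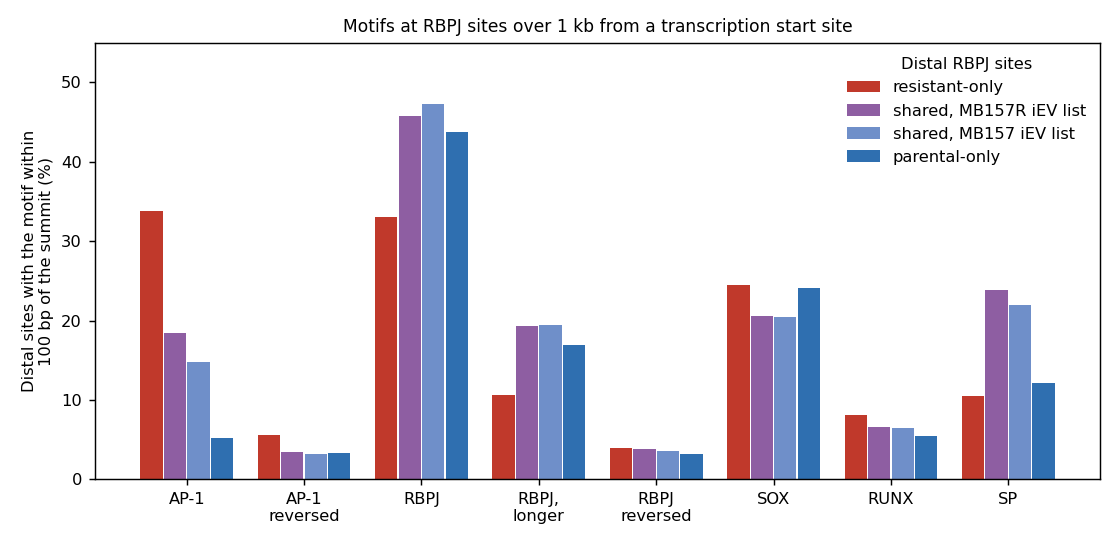
Share of distal RBPJ sites (y axis, %) with each motif (x axis) within 100 bp of the summit, for resistant-only, shared and parental-only sites. AP-1 stands at 33.7% at resistant-only and 5.19% at parental-only sites, while the RBPJ core stands at 33.0% and 43.7%, and the reversed control motifs differ little.

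Of the 10 resistant-only sites of highest fold that no MB157 peak overlapped, counted once per gene and within 50 kb of a TSS, that of ALDH1A3 was the only one at a promoter. Positions below are in kb from the nearest protein-coding TSS, negative when upstream, with hg38 coordinates and GENCODE 44 genes. The highest fold, 110 with 390 fragments, was at 11.9 kb from UPK3BL2 on chromosome 7, a gene with near-identical copies, so that this position is uncertain. PXDN, whose product cross-links collagen IV, followed with a fold of 70.3 (231 fragments) in intron 1 (chromosome 2, 1704723 to 1705728) and 35.3 in MB157R iN1-ICD. ALDH1A3, an enzyme of retinoic acid synthesis and a source of aldehyde dehydrogenase activity in breast cancer stem cells, had a fold of 46.4 (174 fragments) at its TSS on chromosome 15 and 34.2 in MB157R iN1-ICD, and no summit in either MB157 list. On this chromosome the relative background, which is the median number of fragments expected at shared sites divided by the genome-wide value of the same list, was 1.54 times higher in MB157R iEV than in MB157 iEV. All 9 unshared RBPJ sites given to ALDH1A3 were resistant-only, and none was shared. MKNK2, a kinase that phosphorylates the translation factor eIF4E, had a fold of 50.4 in intron 2 and was called at 3.95-fold in MB157 iSOX2. PLXDC2, a membrane protein, had 43.9 in intron 1 with SOX2 at 11.1-fold. ARHGEF4, a guanine nucleotide exchange factor, had 39.4 at -27.8 kb, with SOX2 at 28.4-fold and TGANTCA in its window. The remaining ones were given to CHRNE (40.7), AKIRIN2 (34.5), RPTN (34.2) and SSR3 (33.9). In all, 13203 resistant-only sites were called in both MB157R lists and in neither MB157 list.

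Of the 10 parental-only sites of highest fold chosen in the same way, 7 were called in MB157R iN1-ICD, although not in MB157R iEV. LURAP1L had 58.8 (274 fragments) in intron 1, and 48.3 in MB157R iN1-ICD. MYEOV had 59.5 (227 fragments) at -41.8 kb on chromosome 11, and only 4.99 in MB157R iN1-ICD. These sites were thus not called in MB157R iEV, while LURAP1L had a high fold in the MB157R cells that expressed N1-ICD. TENT4A, a poly(A) polymerase, had 63.7 in intron 1 with 9.69 in MB157R iN1-ICD, TTYH1 had 47.6 with 11.3, SEMA3E, a guidance ligand, had 42.6 with 5.49, and a site given to POU5F1B had 47.9 with 5.23. Of the same 10, TMPRSS2 (43.5), a serine protease, CPSF4L (41.2) and THOC2 (38.9), an mRNA export factor, had no summit in either MB157R list. In all, 5461 parental-only sites were called in both MB157 lists and in neither MB157R list, among which YPEL2 (34.3) and GUCY1A1 (33.4), a subunit of guanylate cyclase, were the next strongest.

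Shared sites had somewhat higher folds in MB157R. The log2 ratio of fold in MB157R over MB157 had a median of 0.34, with -0.49 and 1.10 as the 10th and 90th percentiles, and 13.1% were over 2-fold higher and 2.98% over 2-fold lower. The median was 0.42 at promoters and 0.20 at distal sites. With a SOX2 summit of MB157R nearby it was 0.45, and 0.26 without. Distal sites with TGANTCA had 0.36 and those without 0.17. The expected fragments were 1.14 times higher in MB157R over the genome, and whether depth had a part in these ratios was not tested. All of these are descriptions, as there was 1 list per line.

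Of the 10 shared sites of highest fold in MB157R, counted once per gene, 6 were promoters. Among all shared sites of 20-fold or more, promoters were 54.5% by the fold in MB157R and 43.1% by the fold in MB157. GTF2H4, a subunit of the repair and transcription factor TFIIH, had folds of 133 in MB157R and 101 in MB157 at its promoter. NRARP, which is induced by NOTCH and dampens it, had 111 (507 fragments) in MB157R and 70.1 (185 fragments) in MB157 at -9.36 kb, in intron 19 of EXD3 (chromosome 9, 137310560 to 137313534). The promoter of RBPJ itself was bound, with 93.6 in MB157R and 33.3 in MB157. The promoters of NAPG (92.5 in MB157R and 41.1 in MB157), ZNF155 (90.3 and 29.0), CCDC102B (77.6 and 47.6) and POM121 (75.8 and 33.1) followed. Each of these had the RBPJ core in its window.

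Some shared sites were strong in only 1 line. With at least 5-fold in both lists (5624 sites), the largest ratio was in exon 10 of ARHGEF2, a RhoA exchange factor bound to microtubules, with 85.4 (244 fragments) in MB157R and 7.18 (25 fragments) in MB157. MEGF6 followed with 75.5 in MB157R and 6.53 in MB157 at -2.55 kb. ITGA3, a laminin-binding integrin of basal cells, had 65.3 in MB157R and 8.45 in MB157 in intron 3. ARHGAP30, a GTPase-activating protein, had 84.3 in MB157R and 16.7 in MB157 at a site inside intron 4 of NECTIN4. CTNND1, the p120 catenin of adherens junctions, had 47.0 and 6.55, BAIAP2, an actin regulator, 46.0 and 6.15, and TUBD1, TGM5, TTC6 and TENM4 completed the 10. The other RBPJ lists had the same order at ARHGEF2, with 40.5 in MB157R iN1-ICD and 6.89 in MB157 iSOX2, and at ITGA3, with 59.1 and 7.91. In the opposite direction, MAST2, a microtubule-associated kinase, had 5.64 (19 fragments) in MB157R and 43.8 (113 fragments) in MB157. GABRP, a GABA receptor subunit, had 6.001 in MB157R and 43.9 in MB157 at -11.1 kb. MCL1, an inhibitor of apoptosis, had 9.63 in MB157R and 53.5 in MB157 at 11.04 kb, and 32.8 in MB157R iN1-ICD, against 41.5 in MB157 iSOX2. CCDC88C had 10.1 and 57.0, GABBR2 10.3 and 48.5, and PPP1R32, NCKAP5, IER5 and ZNF774 were others of the 10.

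**Figure D4:**
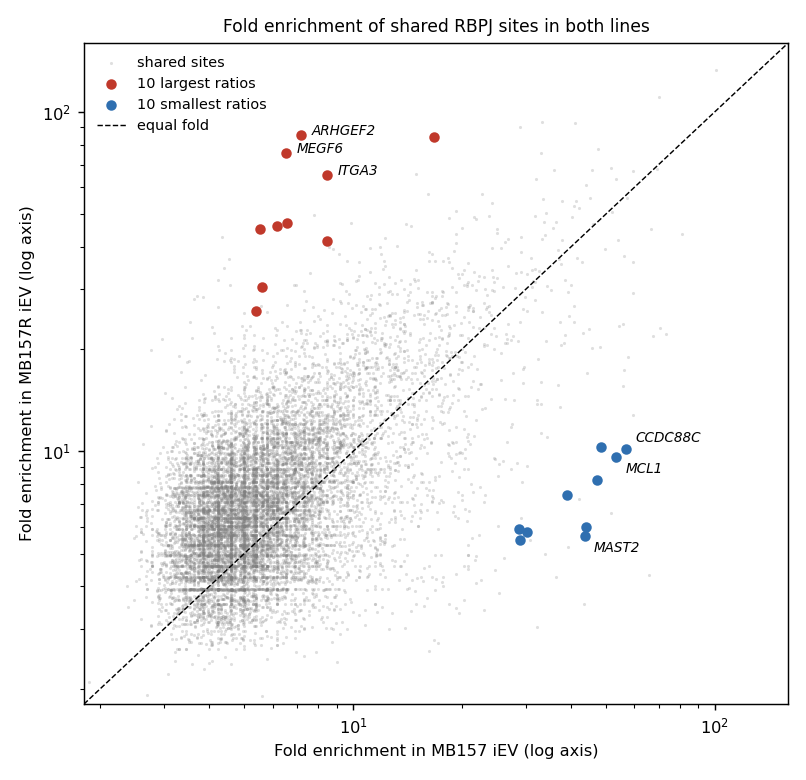
Fold enrichment of each shared RBPJ site in MB157R iEV (y axis, log scale) and MB157 iEV (x axis, log scale), with the 10 largest and the 10 smallest ratios among sites of at least 5-fold in both lists in color and the dashed line at equal fold. ARHGEF2 stands at 85.4 in MB157R and 7.18 in MB157, and MAST2 at 5.64 and 43.8.

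The strongest RBPJ sites of the NOTCH receptors were shared. Over all 19626 protein-coding genes, 23.6% had an RBPJ summit within 1 kb of the TSS in MB157R only, 40.2% in both lines and 4.3% in MB157 only (4624 genes in MB157R only and 843 in MB157 only, but 2965 and 2000 with lists of equal length), and 54.2% had a resistant-only and 29.4% a parental-only site within 50 kb of the TSS. As the rule used this contrast, the counts of the gene groups are set beside these shares and nothing is read from them. A promoter is called bound in a line if a summit of that line lay within 1 kb of a TSS. A peak that reached the promoter from a summit further away did not count. Of the 4 receptors, the promoter was bound in this sense in MB157R only at NOTCH1, in both lines at NOTCH2 and NOTCH3, and in neither at NOTCH4. NOTCH1 had its strongest site in intron 1 at 1.40 kb, with 45.4 (142 fragments) in MB157R and 35.7 (92 fragments) in MB157. Closer to its TSS, at -0.331 kb, lay a resistant-only summit of 10.4, and at -1.32 kb a parental-only summit of 8.83, and peaks of the other list overlapped both. NOTCH1 had 16 resistant-only and 4 parental-only sites in all, on chromosome 9, where the ratio of relative background of MB157R over MB157 was 1.31. NOTCH3 had 30.3 in MB157R and 28.1 in MB157 in intron 2, and 8.15 and 16.2 at 3.13 kb in intron 1. NOTCH2 had 9.92 in MB157R and 4.99 in MB157 at its TSS, and the only site of NOTCH4 was resistant-only (3.62).

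Among the ligands, 1 of 9 promoters (11.1%, against 23.6% of all genes) was bound in MB157R only. In both lines 5 were bound (55.6%, against 40.2%) and in MB157 only 1 (11.1%, against 4.3%). DLL4 had 26.6 in MB157R and 23.4 in MB157 in intron 3. JAG1 had 5 sites in each of the resistant-only and shared classes, the strongest of them resistant-only at 28.4 kb (11.3), and a parental-only one at -0.875 kb (8.37). JAG2 had 5 resistant-only sites of 4.61 to 6.38 and 1 shared site (8.86 in MB157R and 3.31 in MB157). DLL1 had 2 resistant-only sites at its promoter (5.63 and 4.24), which counted as bound in both lines through an MB157 summit given to another gene. The ligands had 24 resistant-only and 4 parental-only sites (85.7% resistant-only, against 71.5% near all genes).

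Some HES and HEY repressors are direct targets through which NOTCH blocks differentiation. The group of 13 genes used here also holds HELT, BHLHE40 and BHLHE41, which are HES or HEY genes neither by name. Of the 13, none had promoter RBPJ in MB157R only, against 23.6% of all genes. In both lines 7 had it (53.8%, against 40.2%) and in MB157 only 3 (23.1%, against 4.3%). HES4 had 54.8 (178 fragments) in MB157R and 41.5 (107 fragments) in MB157 at its TSS, over the motif pair shown above. HEY2 had 50.5 (173 fragments) in MB157R and 34.0 (111 fragments) in MB157. HES1 had 39.4 (179 fragments) in MB157R and 49.9 (151 fragments) in MB157 at -1.24 kb, and HEY1 22.0 in MB157R and 38.5 in MB157 at its TSS. These sites thus remained in the resistant line, with folds higher in MB157R at HES4 and HEY2 and lower at the named sites of HES1 and HEY1. At another summit given to HEY1, however, the fold reached 42.1 in MB157R, above the highest of MB157 (38.5). The neighbourhood of HES1 differed more. It had parental-only sites at -38.5 kb (10.8) and -43.1 kb (10.3), a shared one at -46.5 kb (14.2 in MB157R and 4.06 in MB157), and a resistant-only one at 5.87 kb (18.7) with TGANTCA. HEYL had parental-only sites at both -0.315 kb (4.72) and -7.25 kb (6.53), beside a shared one of 4.18 in MB157R and 7.68 in MB157. HES7 had 23.9 in MB157R and 19.9 in MB157, and HES2 23.6 and 8.45. The group had 26 resistant-only, 19 shared and 17 parental-only sites (60.5% of the unshared ones resistant-only, against 71.5% near all genes). Of these, BHLHE40 had 7 resistant-only and 3 shared, HELT 3 parental-only, and BHLHE41 1 shared and 1 parental-only.

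Of 21 feedback regulators and modifiers of NOTCH, 8 (38.1%, against 23.6% of all genes) had promoter RBPJ in MB157R only, 9 in both lines and 1 in MB157 only, and there were 41 resistant-only and 11 parental-only sites (78.8% resistant-only, against 71.5% near all genes). On the 12 chromosomes with relative backgrounds within 1.2-fold of each other, however, 2 of 13 (15.4%, against 23.4% of all genes there) had it in MB157R only, with 15 resistant-only and 5 parental-only sites (75.0%, against 72.2%). LFNG, a glycosyltransferase that modifies NOTCH, had 8 resistant-only, 2 parental-only and no shared sites, the strongest in intron 1 with 30.3 (122 fragments) in MB157R iEV, 24.4 in MB157R iN1-ICD and 4.61 in MB157 iSOX2. That site was overlapped by an MB157 peak with its summit elsewhere. DTX4 had a resistant-only site of 15.3, and NEURL1B, an E3 ligase for ligands, a shared one of 14.1 in MB157R and 4.43 in MB157. DTX2 had 6.67 in MB157R and 13.0 in MB157 at -2.94 kb. For the cleavage machinery, ADAM10 had 16.4 in MB157R and 11.1 in MB157 at its promoter. Of the 9 genes of this machinery, 3 (33.3%, against 23.6% of all genes) were bound at the promoter in MB157R only. Another 6 (66.7%, against 40.2%) were bound in both lines. There were 17 resistant-only and 3 parental-only sites (85.0% resistant-only, against 71.5% near all genes). On the 12 chromosomes, 0 of 4 were bound in MB157R only, with 4 resistant-only and 1 parental-only sites (80.0%, against 72.2%).

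RBPJ and its cofactors were bound at the promoter in both lines at 18 of 28 genes (64.3%, against 40.2% of all genes). In MB157R only, 7 were bound (25.0%, against 23.6%) and in MB157 only 1 (3.57%, against 4.3%). The group had 75 resistant-only and 34 parental-only sites (68.8% resistant-only, against 71.5% near all genes). RBPJ had, beside its promoter, a parental-only site of 28.8 (74 fragments) at -46.7 kb, which was not called in MB157R iN1-ICD and was called at 11.2-fold in MB157 iSOX2. SPEN, a corepressor, had a resistant-only summit of 42.0 at -0.981 kb, overlapped by an MB157 peak, and shared sites of 31.8 in MB157R and 14.8 in MB157 at 1.79 kb. NCOR1, another corepressor, had 24.0 in MB157R and 40.7 in MB157 at its promoter. CTBP2, a corepressor too, had 9 parental-only and 5 resistant-only sites, the strongest parental-only one of 20.7 in intron 3. MAML2, a coactivator, had 7 resistant-only sites of at most 5.85 and no parental-only one.

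The NOTCH signature of the study was obtained from expression after NOTCH gain and loss, in part in MB157R, and is therefore no independent list for these cells. Of its 76 genes found, 65 (85.5%) had a resistant-only site within 50 kb, against 54.2% of all protein-coding genes. A parental-only site lay within 50 kb of 53 (69.7%), against 29.4% of all. It had 206 resistant-only and 131 parental-only sites, so that 61.1% of its unshared sites were resistant-only, against 71.5% over all protein-coding genes. RHOV, a small GTPase, had 21.8 in MB157R and 67.7 in MB157 at 2.29 kb, and 47.4 in MB157R iN1-ICD. MYEOV and LURAP1L, whose parental-only sites are given above, belong to it, as do NRARP and HES4.

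Of all unshared sites within 50 kb of a protein-coding TSS, 25128 were resistant-only and 9996 parental-only. Over all chromosomes the highest share of a group, beside 71.5% in all, was that of the MAPK feedback genes, with 79 resistant-only and 11 parental-only sites (87.8%). On the 12 chromosomes of like background it was 91.7%, under that of the NOTCH ligands (15 and 1, 93.8%) and of the NOTCH receptors, which had a single unshared site there. DUSP6, a phosphatase that inactivates ERK, had 9 resistant-only sites, the strongest at -18.4 kb with 31.5 (88 fragments), 23.3 in MB157R iN1-ICD and SOX2 at 14.5-fold. DUSP5 had 40.0 in MB157R and 11.9 in MB157 at 32.5 kb. SPRY4, an inhibitor of receptor tyrosine kinase signaling, had 50.7 in MB157R and 52.0 in MB157 at its TSS, and its other 5 sites were resistant-only. ERRFI1, an inhibitor of EGFR, had 9 resistant-only and no parental-only sites.

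Basal mammary genes had 98 resistant-only and 23 parental-only sites (81.0%, and 78.0% on the 12 chromosomes), and luminal mammary genes 74 and 61 (54.8%, and 56.1%). KRT17, a basal keratin, had a resistant-only site at its TSS (20.8, 121 fragments) with TGANTCA, and a shared one of 36.1 in MB157R and 10.4 in MB157 at -29.5 kb. KRT5, in contrast, had a parental-only summit of 32.4 at -2.17 kb and a resistant-only one of 9.24 at -1.48 kb, and both lay inside wider peaks of the other line. Among genes named after their values were seen, ITGA6 had 12 and TP63, a regulator of basal cells, 6 resistant-only sites with no other, and EGFR had 15 resistant-only and 3 parental-only sites. Of the 28 luminal genes, 10 had more resistant-only and 11 more parental-only sites, against 8626 and 2680 of all 19626 genes. FOXA1 (9 resistant-only and 0 parental-only sites), KRT8 (11 and 2) and EHF (11 and 3) were among the former. On the other side, PROM1, a stem and progenitor cell marker, had 4 parental-only sites and no other, the strongest of 20.1 at -41.9 kb. TFAP2A, a factor of mammary epithelium, had 24.9 in MB157R and 20.3 in MB157 at 0.836 kb, and 10 parental-only and 1 resistant-only sites. CEBPB, a leucine zipper factor, had 30.7 in MB157R and 20.6 in MB157, and ELF3, an epithelial ETS factor, 20.6 and 8.78.

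Epithelial genes had 92 resistant-only and 58 parental-only sites (61.3%, and 62.0% on the 12 chromosomes). Of these 32 genes, 16 had more resistant-only and 13 more parental-only sites, against 8626 and 2680 of all 19626 genes. TJP1, on chromosome 15, had 16 resistant-only sites and no other. DSP, the desmosomal plaque protein, had 21.3 in MB157R and 27.3 in MB157 at 1.51 kb, and 8 parental-only and 1 resistant-only sites. CLDN7, a tight junction protein, had 21.9 in MB157R and 27.6 in MB157 at its promoter. EPCAM, an adhesion molecule named after its values were seen, had 6 parental-only sites, the strongest of 18.0 at -34.6 kb, and 2 resistant-only ones. EMT and mesenchymal genes had 140 and 34 (80.5%), but 70.7% on the 12 chromosomes, close to the 72.2% of all genes there. VIM, the intermediate filament of mesenchymal cells, had 31.2 in MB157R and 12.1 in MB157 at its promoter. COL5A1, a collagen, had 17 resistant-only sites and no other, on chromosome 9.

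Stem cell genes had 52 resistant-only and 18 parental-only sites (74.3%, and 55.2% on the 12 chromosomes), and ALDH1A3, ALDH1A1 and PROM1 went in different directions, since ALDH1A1 had its strongest site (12.0) among the parental-only ones. The SOX family had the lowest share, with 35 resistant-only and 33 parental-only sites (51.5%). SOX4 had a parental-only site of 22.1 at -23.6 kb and SOX9 one of 19.1 at -16.0 kb, whereas SOX7 had a resistant-only one of 22.1 at 19.2 kb. SOX2 itself had only weak sites, 4 resistant-only, 1 shared (5.32 in MB157R and 5.01 in MB157) and 1 parental-only (5.70). The genes of the AP-1 family, by contrast to the AP-1 motif, were close to all genes, with 45 and 15 sites (75.0%), and JUN had 20.8 in MB157R and 9.36 in MB157 at its promoter. Src family and other dasatinib target genes had 62 and 21 (74.7%), and YAP, TAZ and TEAD genes 76 and 33 (69.7%), beside 71.5% near all genes. CDK inhibitors had 25 and 7 (78.1%), of which 7 and 6 (53.8%, against 72.2% near all genes there) lay on the 12 chromosomes. Ribosomal protein genes had 73 and 24 (75.3%). CDKN2B, a cell cycle inhibitor, had 54.6 in MB157R and 37.7 in MB157 in its first exon. Of the 30 liver, blood and muscle genes taken as genes of other tissues, 28 had no promoter RBPJ in either line, against 6263 of all 19626 genes. There were 6 resistant-only and 5 parental-only sites near them (54.5% resistant-only).

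**Figure D5:**
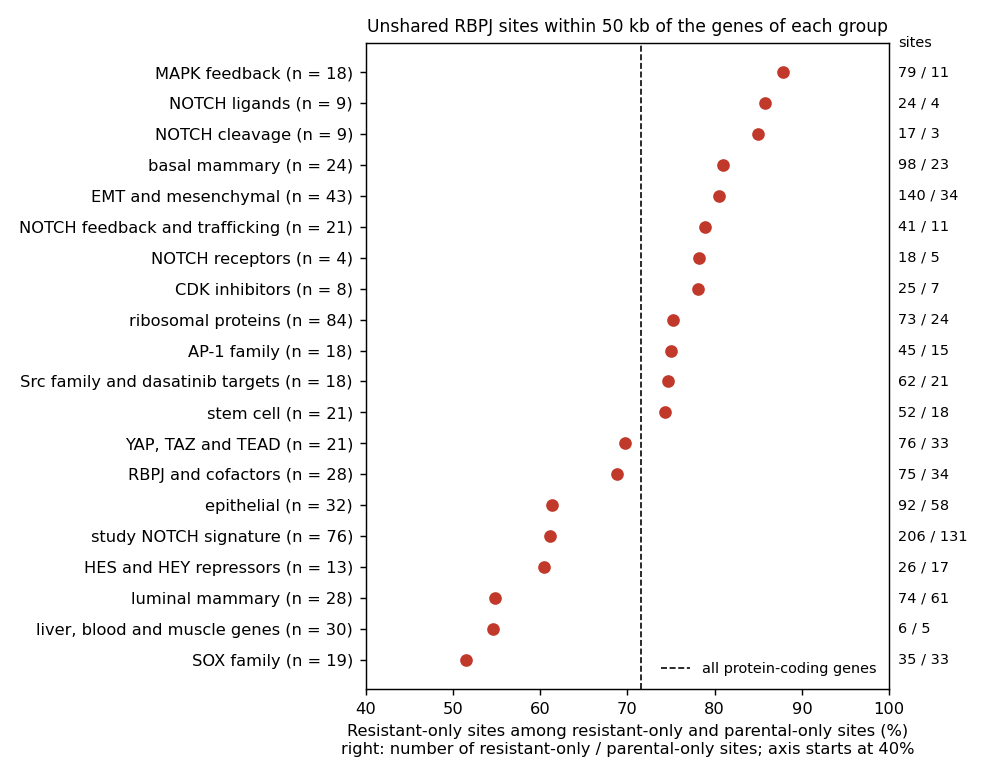
Share of resistant-only sites among all unshared RBPJ sites (x axis, %, starting at 40%) within 50 kb of the genes of each group (y axis, number of genes in parentheses), with the numbers of resistant-only and parental-only sites at the right and all protein-coding genes (71.5%) as a dashed line. MAPK feedback genes stand highest at 87.8% and the SOX family lowest at 51.5%.

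Some single genes gathered many unshared sites. SMAD3, the signal transducer of TGF-β, had 26 resistant-only sites and no parental-only one, of up to 36.5, but lies on chromosome 15, where the relative background was 1.54 times higher in MB157R. FBLN2, an extracellular matrix protein (25 resistant-only and 3 parental-only sites), HRH1, a histamine receptor (21 and 0), IQSEC1 (29 and 8) and FOXP1, a forkhead repressor (19 and 2), lie on chromosome 3, where the relative backgrounds were nearly equal (ratio 0.984). KCNJ15, a potassium channel, had 22 and 0, and MICAL2, CMIP and DAB2IP between 17 and 18 more resistant-only than parental-only sites. The reverse was seen at CDC42EP4, an effector of CDC42 (2 resistant-only and 15 parental-only sites), at ZIC1, a zinc finger factor (0 and 11), and at CAPN12, CERS4, MRGBP, TTYH1 and CSF2RA. APP, the amyloid precursor, had 1 and 9, and reached 66.0 in MB157. MYC, a driver of proliferation, had 1 resistant-only and 10 parental-only sites, but its promoter was bound alike, with 11.8 in MB157R and 12.0 in MB157. MYC lies on chromosome 8, where the relative background in MB157R was 0.579 of that in MB157.

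The classes were not spread evenly over the chromosomes. Resistant-only sites were 89.8% of the unshared sites on chromosome 15 (1487 and 168), where the ratio of relative background of MB157R over MB157 was 1.54. They were 56.3% on chromosome 19 (1295 and 1007), 56.2% on chromosome 20 (848 and 662) and 59.8% on chromosome 16 (858 and 577), with ratios of 0.741, 0.765 and 0.668. On 12 chromosomes the relative background differed less than 1.2-fold, and the 72.2% of resistant-only among unshared sites near genes there was close to the 71.5% of all. The part of copy number in single genes was not tested.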

How the data were processed

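RBPJ, SOX2 and HA were precipitated from cross-linked chromatin. Reads were trimmed and mapped to hg38 by the authors (BWA), who then ran MACS2 in its narrow mode on the combined libraries of a group, against their inputs. In the deposited lists, the score is 10 times the −log10 q, and the ratio is the authors' fold enrichment at the summit. The significance of a peak stands in 2 deposited columns, as −log10 p and as −log10 q, and peak bounds and the offset of the summit are in other deposited columns. Fragments and background at a summit were recovered from the deposited ratio and −log10 p, exactly in 100% of the peaks of each list of 3 libraries and in 85.7% of the HA control, whose depth was not used. All lists mapped to a group by the labels, and columns of no mapped sample used were 0.

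Shares have exact binomial 95% intervals (Clopper-Pearson). Classes were compared by Fisher's exact test (two-sided) with Woolf intervals, within sites by the exact McNemar test, and over 5 bins of fold by Mantel-Haenszel odds ratios. Families were adjusted by Benjamini-Hochberg at 0.05, and 1e-300 was the smallest p written. Motifs were searched, on both strands, up to 100 bp from a summit, CTCF by a consensus. Genes were the 19626 protein-coding genes of GENCODE 44, and a site went to the nearest TSS within 50 kb. The 20 gene groups held 497 genes, of which 496 were found. Named were the 10 sites of highest fold per class (without an overlapping peak of the other list where unshared, 1 per gene), 5 more per line called in neither list of the other line, the 10 largest and smallest ratios, the 10 genes with the largest surplus of either unshared class, NOTCH pathway genes and up to 4 genes per other group. The members, lists and tests were chosen with earlier results of these data known. The printed sites with TGANTCA (the highest folds within 50 kb of a TSS, not overlapped by an MB157 peak, chromosome 8 left out), and the alternative of promoter sites only, were chosen after seeing the data. The scripts were tested on simulated data. Some genes that the rule names are not reported here.

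Alternatives were 100, 250 and 1000 bp or an overlap of 1 bp in place of 500 bp, a −log10 q of at least 5, no overlapping peak, equal list length, MB157R thinned to the genome-wide background of MB157 (random seed 7), distal or promoter sites only, promoters of 5 kb, motif windows of 50 bp, 5 bins of fold, and the 12 chromosomes of like relative background. The analysis ran in Python 3.11.15 with scipy 1.17.1, numpy 2.4.6, pandas 2.3.3, pysam 0.24.0, samtools 1.23.1 and matplotlib 3.10.9.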

Additional observations from a re-analysis of the deposited data

How the results depend on the processing

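The share of sites called shared depended on its definition. It was 15.1% in MB157R iEV and 27.8% in MB157 iEV with summits under 100 bp apart, 21.8% and 40.2% under 250 bp, 30.4% and 56.6% under 1000 bp, 28.4% and 55.9% for overlapping peaks, and 22.5% and 50.4% in the stricter lists (−log10 q from 5 up). With the MB157R list shortened to the length of the MB157 list it was 37.2% and 37.6%, with MB157R thinned to the genome-wide background of MB157, which does not equalise single chromosomes, 26.9% and 47.8%, and 49.4% in MB157 iEV on the 12 chromosomes of like background. The odds ratio of a promoter position between resistant-only and parental-only sites was 0.767 under 100 bp, 0.865 under 250 bp and 0.916 with promoters of 5 kb, but 1.45 under 1000 bp, 1.56 for overlapping peaks, 1.52 in the stricter lists and 1.62 without overlapped sites. The numbers of genes with promoter RBPJ were 4905 in both lines in the stricter lists, and 2965 in MB157R only and 2000 in MB157 only at equal list length. SOX2 of MB157R iEV near resistant-only against shared sites had an odds ratio of 0.706 at promoters only, the only setting of those run in which it fell below 1, and 1.21 to 2.12 in the others. Among motifs, SOX had 1.05 under 100 bp, 1.02 under 250 bp and 1.01 at distal sites, SP 0.999 under 100 bp and 0.848 at distal sites, NRF1 0.605 at distal sites, and the reversed controls 0.843 (RBPJ) and 0.908 (AP-1) at promoters. Patterns lower in resistant-only sites numbered 4 in the stricter lists and 4 at distal sites. The causes were not tested. AP-1 kept its direction and its side of the threshold in all 13 alternatives (3.11 to 9.31), as did TGGGAA (0.500 to 0.873) and, in 12, the calls in MB157R iN1-ICD (2.39 to 10.9) and in MB157 iSOX2 (0.0937 to 0.451). No paired analysis was possible because the deposited peak lists pool the replicates, and for the same reason no replicate could be left out.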
